A study of Mus musculus with 28 samples.

Results

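Long-term haematopoietic stem cells (LT-HSC) that carry a Dnmt3a mutation were compared by RNA sequencing after 4 months in old or in young recipient mice. The comparison used every library labelled Old-D3aMut-LTHSC (4 libraries) and Young-D3aMut-LTHSC (2 libraries), that is 6 of the 28 libraries of the series, and all genes. In the series, C57BL/6 marrow from young donors, either Mx1-Cre control or Dnmt3a-mutant, was transplanted into young or old CD45.1 recipients, and LT-HSC and MPP3, a myeloid-biased multipotent progenitor, were isolated again from the marrow. Each old mutant LT-HSC library names a pair of recipient animals and each young one a single animal, so the age of the recipient and the pooling of animals cannot be told apart. Control LT-HSC (3 libraries from old and 4 from young recipients) and mutant MPP3 (4 and 3 libraries) served for 2 further comparisons. The labels used here do not describe the mutant allele, do not say whether the mutant donors also carried Mx1-Cre, and give no age in weeks or months for the recipients. The young group of 2 libraries is the main limit, and its spread rests on 1 difference. An exact permutation of 4 against 2 libraries has 15 splits. For a single value its 2-sided p, taken as the 1-sided p doubled, cannot go below 0.133.

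Dnmt3a is a de novo DNA methyltransferase, and mutations that reduce its activity are the most common lesion of clonal haematopoiesis, the age-related expansion of blood cells from a single stem cell. Mutant stem cells renew more and differentiate less than their neighbours, and the marrow around them, which becomes more inflamed with age, is known to influence that advantage. Tumour necrosis factor (TNF), the cytokine that the title of the series names through its receptors, acts on blood cells through Tnfrsf1a and Tnfrsf1b. Both receptors can switch on NF-kB, a transcription factor family whose targets include chemokines, survival factors and its own inhibitors. Immediate-early genes are a different layer: they are transcribed within minutes of many stimuli from promoters that need no new protein, and several of them are also listed among NF-kB targets and in ageing signatures of stem cells.

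No gene passed the test between old and young recipients: 0 of 14588 genes (0%) had an adjusted p under 0.05 by edgeR's quasi-likelihood test, and the smallest adjusted p was 0.723. The genes named below therefore all had an edgeR adjusted p of at least 0.723 in this comparison, and most are given with a fitted log2 difference and its standard error (SE), the others with a bound, a pooled ratio or their values by library only. Where leaving out 1 library brought a fold or pooled ratio over 1.5 times nearer to no difference, the value without it stands beside it, and a bound is given also without the library that holds most of the counts where that lowers it as much. At an unadjusted p under 0.05 there were 943 genes (6.46%), of which 479 lay higher in old recipients (3.28%) and 464 lower (3.18%). Values are also given by library, as CPM, counts scaled to the library size with TMM factors, in the order of libraries 1, 2, 3 and 4 for old and 1 and 2 for young recipients. A gene is described as not overlapping when all 4 old libraries lay on the same side of both young libraries. Of all genes tested, 794 (5.44%) did not overlap and were higher in old recipients, and 1052 (7.21%) did not overlap and were lower. The median log2 difference of all genes was 0.19. Whether the result is 0 depends on the tool: DESeq2's Wald test on the same libraries called 318 of 13362 genes (2.38%), 257 higher (1.92%) and 61 lower (0.457%).

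The 6 libraries held between 6707630 and 9361570 counts, and the share of mitochondrially encoded counts ran from 17.8% to 27.7% in old and from 13.9% to 28.4% in young recipients. Old libraries 1 and 4 stood apart from the rest. Immunoglobulin genes took 1.32% and 1.57% of their counts against at most 0.025% in the other 4 libraries, and they lay at the far ends of the second and first principal components, which carried 12.8% and 13.8% of the variance. Old library 4 also held summed neutrophil marker levels of 21280.0 CPM and old library 3 of 3469.9 CPM, against 81.6 and 61.1 CPM in the young libraries. Results are therefore also given without libraries 1 and 4 or from old library 2 alone. Leaving out libraries 1 and 4 keeps library 3 and so does not remove neutrophil transcripts: all 19 tested neutrophil markers were then still above 0 in log2 difference. Old library 2 was close to the young libraries in both respects, with 133 CPM of neutrophil and 142 CPM of plasma cell markers (young 106 and 299 CPM). In it Ighm, Jchain and Mzb1 were at 0, while Ighg2b and Fkbp11 were read and were at 0 in both young libraries. Of 12 tested plasma cell markers, 2 (16.7%) lay above both young libraries in library 2 and 3 (25%) below both. Over all genes these shares were 33.9% and 29.2%. The LT-HSC markers were present in every library: of the 14 markers, Hoxb5 in young library 2 was the only one at 0. Their summed level was 6334, 5027, 3256 and 1952 CPM in old and 3974 and 3787 CPM in young recipients, lowest in old library 4. Old libraries 1, 2 and 4 and both young ones were placed in the same sequencing pool, and old library 3 in the other. No label names a pool. The pools were inferred from the S numbers in the column names, which repeat along the order of library numbers. Pearson correlations of log2 CPM between libraries were 0.651 to 0.747 within the old group, 0.79 between the young libraries and 0.675 to 0.770 across the groups, so the ranges within and across the groups overlapped. In bulk RNA from sorted cells, fewer cells of a type and less RNA per cell cannot be told apart.

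**Figure D1:**
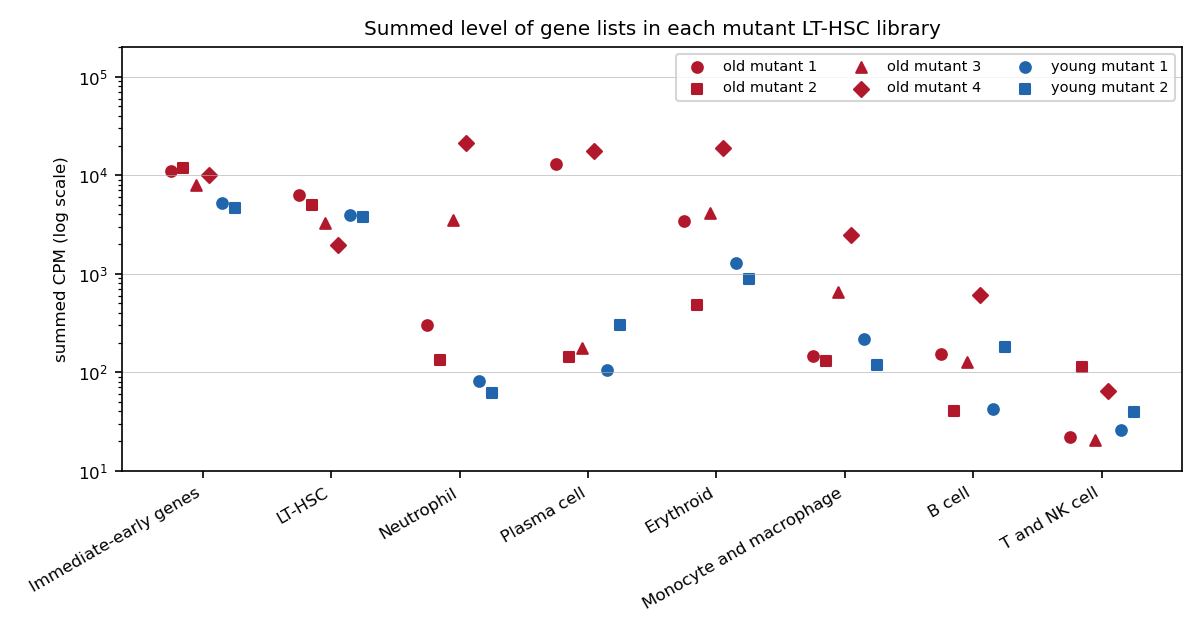
Summed CPM of marker lists for other cell types and for LT-HSC, on a log axis, and of the immediate-early genes, in each of the 4 old (red) and 2 young (blue) mutant LT-HSC libraries, 1 symbol a library. Neutrophil markers sum to 21280.0 CPM in old library 4 and to 133 CPM in old library 2, next to 81.6 and 61.1 CPM in the young libraries.

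Among the pathway lists, the immediate-early genes had the largest share on the higher side. Of 30 listed and tested, 15 (50%) did not overlap and were higher in old recipients and 1 (3.33%), Myc, was lower, beside 5.44% and 7.21% of all genes. The median log2 difference was 1.22 against 0.19 for all genes, and 26 of the 30 (86.7%) were above 0, beside 55.7% of all genes. Summed over the list, the level was 11011, 11838, 7915 and 9983 CPM in old and 5195 and 4630 CPM in young recipients, so the lowest old library lay above the highest young one. Old library 2, with few neutrophil or plasma cell transcripts, had the highest sum. That rank rests on Egr1, at 3284 CPM in library 2 against 1888, 1193 and 1160.3 CPM in libraries 1, 3 and 4. From library 2 alone the list median was 1.16, and without libraries 1 and 4 it was 1.12, with 18 of 30 (60%) not overlapping and higher beside 17% of all genes (16.4% lower). Of the 30, 9 then had an unadjusted p under 0.05, beside 5.68% of all genes, and DESeq2 without those libraries called 192 of 12397 genes (1.55%). None of the 30 passed the adjusted threshold of edgeR. DESeq2 called 8 of the 30, all higher, beside 2.38% of all genes. The list was chosen with earlier results of these data known.

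The promoters of 6 of these 15 genes are shown because their members lay on the same side and because short DNA elements for stimulus-responsive factors lie close to the start of several of them. Each is the 250 bases before the RefSeq transcript start (GRCm38.p6), 5′ to 3′ on the gene's own strand, and capitals mark matches, on either strand, to TGACG, the core of the cAMP response element that CREB and ATF proteins bind.
Nr4a1: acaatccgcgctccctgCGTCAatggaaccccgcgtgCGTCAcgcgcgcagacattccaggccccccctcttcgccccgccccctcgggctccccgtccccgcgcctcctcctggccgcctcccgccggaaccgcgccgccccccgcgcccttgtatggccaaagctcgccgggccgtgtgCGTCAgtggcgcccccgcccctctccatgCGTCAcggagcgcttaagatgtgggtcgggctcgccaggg
Nr4a2: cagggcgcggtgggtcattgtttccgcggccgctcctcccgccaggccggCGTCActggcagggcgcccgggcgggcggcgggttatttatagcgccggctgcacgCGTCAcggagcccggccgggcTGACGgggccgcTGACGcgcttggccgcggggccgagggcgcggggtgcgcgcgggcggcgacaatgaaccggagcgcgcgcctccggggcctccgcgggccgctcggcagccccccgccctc
Btg2: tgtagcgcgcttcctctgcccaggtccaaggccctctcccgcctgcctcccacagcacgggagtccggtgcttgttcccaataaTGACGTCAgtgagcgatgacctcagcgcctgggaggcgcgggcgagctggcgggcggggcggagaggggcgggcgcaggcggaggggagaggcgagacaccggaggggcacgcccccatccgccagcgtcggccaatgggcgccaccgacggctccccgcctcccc
Junb: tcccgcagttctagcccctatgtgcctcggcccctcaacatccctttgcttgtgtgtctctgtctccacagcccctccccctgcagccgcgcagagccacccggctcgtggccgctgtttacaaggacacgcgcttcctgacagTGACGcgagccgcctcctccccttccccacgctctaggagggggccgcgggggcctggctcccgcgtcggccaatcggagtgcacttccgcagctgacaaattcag
Klf4: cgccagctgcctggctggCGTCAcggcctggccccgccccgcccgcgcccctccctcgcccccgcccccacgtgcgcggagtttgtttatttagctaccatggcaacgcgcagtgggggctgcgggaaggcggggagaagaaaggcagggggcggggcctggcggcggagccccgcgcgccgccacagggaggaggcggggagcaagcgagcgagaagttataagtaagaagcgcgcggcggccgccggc
Atf3: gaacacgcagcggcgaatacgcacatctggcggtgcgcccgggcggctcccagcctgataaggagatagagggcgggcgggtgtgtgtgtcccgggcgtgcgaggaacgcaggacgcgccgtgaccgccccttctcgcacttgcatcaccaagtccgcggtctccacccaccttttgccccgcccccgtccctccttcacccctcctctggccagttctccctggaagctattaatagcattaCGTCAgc

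These windows lie at chr15:101266596-101266845 on the plus strand for Nr4a1, and on the minus strand at chr2:57124004-57124253 for Nr4a2, chr1:134079156-134079405 for Btg2, chr8:84978749-84978998 for Junb, chr4:55532476-55532725 for Klf4 and chr1:191183334-191183583 for Atf3. Nr4a1 and Nr4a2 hold 4 cores each. In Btg2 cores on both strands overlap to form TGACGTCA, the full palindromic element, from 166 to 159 bases before the start. The single match in Atf3 lies 7 to 3 bases before the start, that in Junb 106 to 102 and that in Klf4 232 to 228 bases before it. Of the 30 immediate-early genes, 24 matched a promoter window by symbol, and 14 of them (58.3%) held at least 1 core, against 29.9% of the 10351 tested genes with a window and 19.8% of all 27025 windows. The CArG box, which serum response factor binds, was in 2 of the 24 (8.33%, against 1.49% of tested genes). An NF-kB site was in 6 (25%, against 10.1%). Of the 15 genes that did not overlap and were higher, 14 had a window. Of these 14, 9 (64.3%) held at least 1 core, 1 (7.14%) a CArG box and 2 (14.3%) an NF-kB site. No window of the 24 held the AP-1 site TGANTCA (0%, against 5.48%), and those of Jun, Jund and Klf6 held none of the 4 patterns. A match describes letters in a window and shows no binding.

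Among the immediate-early genes, Zfp36 had the smallest p. It encodes tristetraprolin, which binds AU-rich elements and hastens the decay of cytokine mRNAs, and lies at chr7:28376784-28380253 on the minus strand. Its level was 1392, 1683, 1320.0 and 1725 CPM in old and 675 and 515 CPM in young recipients. All 4 old libraries lay well above both young ones, and the fitted difference was 2.57-fold (log2 difference 1.36, SE 0.27, edgeR adjusted p = 0.723). In control LT-HSC it was at 656, 917 and 653 CPM in old and 657, 512, 649 and 602 CPM in young recipients, all below the lowest old mutant library.

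Nr4a1 and Nr4a2 encode orphan nuclear receptors that are induced without a ligand and restrain proliferation of stem cells. Nr4a1 (chr15:101254269-101274795, plus strand) stood at 458, 312, 409 and 516 CPM in old against 109 and 58.8 CPM in young recipients, a 5.06-fold difference (log2 difference 2.34, SE 0.49). For Nr4a2 (chr2:57106830-57124003, minus strand) the levels were 514, 321, 316 and 107 CPM and 69.6 and 58.3 CPM (4.92-fold, log2 difference 2.30, SE 0.59). Old library 4, the highest for Nr4a1, was the lowest of its group for Nr4a2, and both genes kept the groups apart. Nr4a3, the third receptor of the family, overlapped between the groups. Egr1, an immediate-early zinc finger factor linked to stem cell quiescence, had 1888, 3284, 1193 and 1160.3 CPM in old and 662 and 384 CPM in young recipients (3.60-fold, log2 difference 1.85, SE 0.46), and old library 2 was the highest.

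The AP-1 subunits differed among themselves. Junb, a brake on stem cell cycling, was at 159, 83.9, 60.2 and 97.8 CPM in old and 13.8 and 10.4 CPM in young recipients (8.28-fold, log2 difference 3.05, SE 0.90). Jun was at 1029.7, 509, 648 and 1033 CPM and 345 and 369.6 CPM (2.25-fold, log2 difference 1.17, SE 0.44). Jund was at 266, 105, 139 and 94.01 CPM and 64.7 and 39.3 CPM (2.90-fold, log2 difference 1.54, SE 0.65). All Jun family members thus kept the groups apart, with the widest relative gap in Junb. Junb overlaps Prdx2, Jun overlaps Junos and Jund overlaps Gm11175 in the annotation, and the sources used here do not say whether strand was used in counting. Among the Fos partners, Fosb stood at 1133, 1543, 822 and 1056 CPM and 779.7 and 794 CPM (1.45-fold, log2 difference 0.53, SE 0.33). Fos overlapped, since old library 3 at 451 CPM lay below young library 2 at 487 CPM. Fosl2 did not overlap, at 278, 101, 104 and 443 CPM against 68.8 and 42.4 CPM (4.16-fold, log2 difference 2.06, SE 1.0002).

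Atf3, a stress-induced partner of Jun proteins, was read in each old library and in neither young one. Its level was 13.4, 18.8, 10.3 and 23.01 CPM in old recipients and 0 in both young libraries, at least 95.9-fold higher against a floor of 3 counts over the young group. Every such bound depends on the depth of the young group and falls when either young library is left out. Without libraries 1 and 4 it kept this pattern, since libraries 2 and 3 read 18.8 and 10.3 CPM.

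Krüppel-like factors of the list lay on the same side. Klf6 was at 1041, 751, 506 and 632 CPM in old and 310.3 and 331 CPM in young recipients (2.29-fold, log2 difference 1.19, SE 0.33). Klf4, a factor that limits cell division, was at 140.4, 46.8, 15.9 and 47.5 CPM and 3.98 and 4.68 CPM (14.4-fold, log2 difference 3.85, SE 1.31; 8.45-fold without old library 1). Klf2, which keeps lymphocytes and stem cells quiescent, was at 69.5, 69.9, 72.4 and 100.3 CPM and 30.4 and 35.2 CPM (2.38-fold, log2 difference 1.25, SE 0.96). The Klf4 gap was wide in old library 1 and narrow in old library 3, whereas 3 of the 4 old libraries were alike for Klf2.

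Dusp1 and Btg2, also members of the list, did not overlap either. Dusp1, a phosphatase that switches off MAP kinases, was at 686, 673, 708 and 946 CPM in old and 531 and 514 CPM in young recipients (1.44-fold, log2 difference 0.53, SE 0.29). It overlaps Ergic1 in the annotation. Btg2, an antiproliferative cofactor of mRNA deadenylation, was at 22.4, 23.01, 43.3 and 225 CPM and 0.603 and 16.3 CPM (9.27-fold, log2 difference 3.21, SE 1.64; 3.496-fold without old library 4 and 4.82-fold without young library 1), and its fold rests mostly on old library 4 and young library 1. Without old libraries 1 and 4 the Btg2 log2 difference was 2.00.

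The exception in direction was Myc, which drives growth and ribosome production. Myc was at 169, 231, 324 and 208 CPM in old and 424 and 399 CPM in young recipients (1.77-fold lower, log2 difference -0.82, SE 0.41). All 4 old libraries were thus below both young ones, with old library 3 the nearest. Mcl1, an anti-apoptotic member of the BCL2 family, overlapped at 583, 486, 526 and 787 CPM and 498 and 332 CPM (log2 difference 0.52, SE 0.38).

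**Figure D2:**
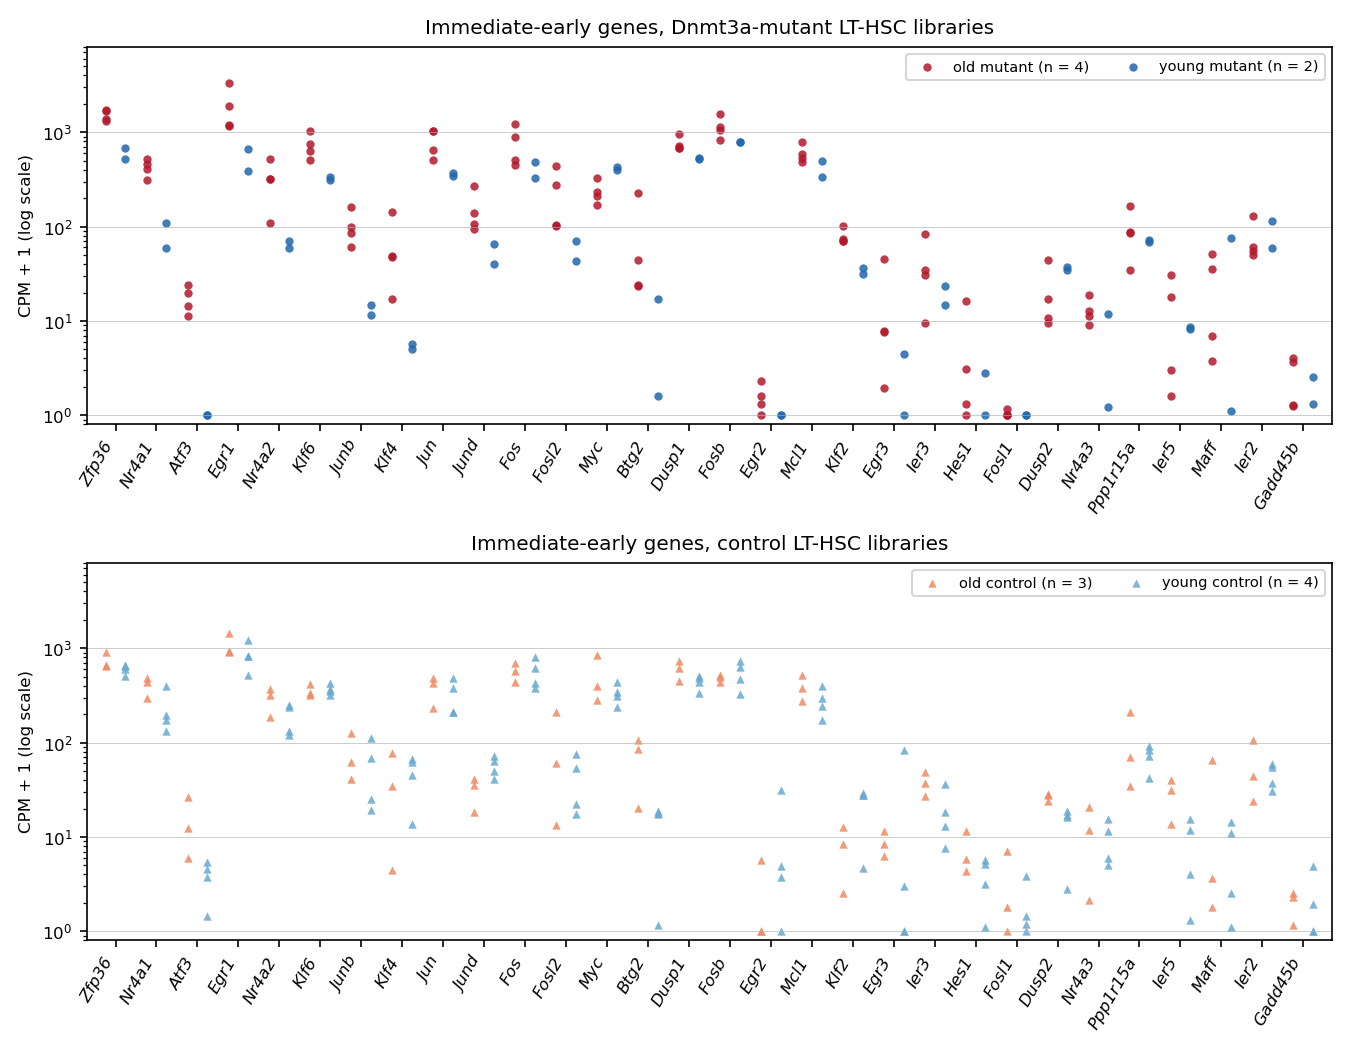
CPM + 1 on a log axis for the 30 immediate-early genes, 1 point a library, in mutant LT-HSC (upper panel, 4 old in red and 2 young in blue) and control LT-HSC (lower panel, 3 old in orange and 4 young in light blue), ordered by p. Zfp36 lies between 1320.0 and 1725 CPM in old against 515 and 675 CPM in young recipients, and Atf3 is at 0 in both young libraries.

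The same layer was measured in control LT-HSC, where the donors were Mx1-Cre marrow and the recipients old or young. There the list median was 0.45, 3 of 30 genes (10%) did not overlap and were higher, and 1 (3.33%) was lower, beside 2.51% and 4.38% of all genes. Over all genes the control comparison had 0 of 14588 past the adjusted threshold (0%) and 889 (6.09%) at an unadjusted p under 0.05, 363 higher (2.49%) and 526 lower (3.61%). The summed level was 5797, 6662 and 6917 CPM in old and 4791, 4791, 5151 and 5768 CPM in young recipients, so all control libraries lay below the lowest old mutant library. The old-to-young difference of the mutant minus that of the control was tested for every gene in the same model: 0 of 14588 genes (0%) passed, and 1149 genes (7.88%) had an unadjusted p under 0.05, 759 with a larger difference in the mutant (5.2%) and 390 with a smaller one (2.67%). Of the 30 immediate-early genes, 10 were on the larger side at that threshold and 1 on the smaller, with a median of 0.91 beside 0.25 for all genes. Zfp36 differed by 1.07 on the log2 scale (SE 0.34), from 1.36 in the mutant and 0.29 in the control. Klf6 differed by 1.22 (SE 0.42), with -0.03 in the control. Myc went the other way, by -1.43 (SE 0.55), since it was 0.61 in the control. DESeq2 called 261 of 13113 genes (1.99%) in this comparison of differences.

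All 6 mutant LT-HSC libraries shared their recipient animals with 6 of the 7 mutant MPP3 libraries. Mutant MPP3 gave a list median of 0.15 for the immediate-early genes, in a comparison with 0 genes past the adjusted threshold and 685 of 16309 (4.2%) at an unadjusted p under 0.05. The difference between the cell types was tested in a model of all 28 libraries, in which 0 of 16309 genes (0%) passed and 1479 (9.07%) had an unadjusted p under 0.05. That model has no term for the shared animals. With the animals as a block, an alternative chosen after seeing the data, 0 genes passed (smallest adjusted p 0.0687 by edgeR) and 670 (4.11%) had an unadjusted p under 0.05. Without that block, the immediate-early list had a median of 1.26, beside 0.17 for all genes. At an unadjusted p under 0.05 it had 5 genes on the LT-HSC side and 0 on the MPP3 side. With the animals as a block the median was 1.08, with 2 genes on the LT-HSC side and 0 on the other. Neat1, a long noncoding RNA that builds paraspeckles, showed the contrast at a high level. It was at 1418, 1774, 1504 and 2247 CPM in LT-HSC from old and 308 and 476 CPM from young recipients (4.43-fold, log2 difference 2.15, SE 0.45). In MPP3 it was at 240.2, 988, 575 and 338 CPM from old and 321, 599.9 and 669 CPM from young recipients, where the groups overlapped (log2 difference 0.01, SE 0.39). The difference between the cell types was 2.13 (SE 0.61), and 2.61 (SE 0.51) with the animals as a block. Neat1 is not a member of the list.

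Genes that NF-kB and TNF are known to induce formed a list of 153, of which 126 were tested. Of these, 25 (19.8%) did not overlap and were higher in old recipients and 3 (2.38%) were lower, beside 5.44% and 7.21% of all genes. Of the 126, 95 (75.4%) had a log2 difference above 0, beside 55.7% of all genes. The median was 1.03. The list shares 28 tested genes with the immediate-early list, and 13 of the 25 are shared. Among the other 98 genes, 12 (12.2%) did not overlap and were higher, 2 (2.04%) were lower, and the median was 0.99. Summed CPM of the whole list was 18472, 18406, 13257 and 18385 in old and 9250.5 and 9463 in young recipients. These sums include the 28 genes shared with the immediate-early list. Old library 3 was the lowest of its group and still above both young libraries. From library 2 alone the median was 0.60, and without libraries 1 and 4 it was 0.76, beside -0.12 and 0.00 for all genes. DESeq2 called 16 of 122, all higher, beside 2.38% of all genes.

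Cxcl2 and Il1b, secreted members of this list, were read in every old library and at 0 in both young ones. Cxcl2, a neutrophil chemoattractant, was at 61.9, 4.11, 26.8 and 102 CPM in old and at 0 in both young libraries, at least 264-fold higher (at least 175-fold without old library 4). Il1b, the precursor of interleukin-1 beta, was at 19.3, 32.7, 37.6 and 368 CPM in old and 0 in both young libraries, at least 597-fold higher (at least 176-fold without old library 4). Ptgs2, the inducible cyclooxygenase, was at 135, 158, 37.1 and 133 CPM and 30.5 and 2.98 CPM (6.91-fold, log2 difference 2.79, SE 1.55; 3.82-fold without young library 2). Il1b was far higher in old library 4 than in the others, and Cxcl2 was lowest in library 2. Neutrophils and monocytes express Cxcl2 and Il1b strongly, and libraries 3 and 4 had the highest neutrophil marker sums. In library 2, where 15 of 20 neutrophil markers were at 0, Il1b was at 32.7 CPM and Cxcl2 at 4.11 CPM. Of 11 tested monocyte and macrophage markers, 4 (36.4%), Csf1r and Adgre1 among them, lay above both young libraries in library 2. Below both lay 2 (18.2%), and over all genes the shares were 33.9% and 29.2%. Which cells the Il1b and Cxcl2 reads came from was not tested.

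Tlr2, a receptor for bacterial lipopeptides that signals to NF-kB, was at 50.7, 37.5, 13.1 and 114 CPM in old and 0.483 and 1.59 CPM in young recipients (50.9-fold, log2 difference 5.67, SE 2.21; 31.96-fold without old library 4 and 33.4-fold without young library 1). Tnfaip2, a TNF-induced gene, was at 88.2, 162, 34.05 and 48.7 CPM and 5.79 and 9.04 CPM (11.2-fold, log2 difference 3.48, SE 1.02). Nfkbiz, an inducible nuclear regulator of NF-kB, was at 145, 248, 153 and 226 CPM and 24.5 and 123 CPM (2.61-fold, log2 difference 1.39, SE 0.63; 1.57-fold without young library 1). The Tnfaip2 values of old library 2 were the highest, and for Nfkbiz young library 2 lay much nearer the old group than young library 1.

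Dusp5, a phosphatase of ERK kinases (chr19:53529109-53542431, plus strand), was at 236, 18.3, 10.3 and 54.8 CPM in old and 0 and 0.106 CPM in young recipients. The young group held so few counts that the pooled ratio was 1395 with a 95% counting interval of 250.1 to 55117. Most of the old counts came from library 1, and without it the ratio was 459 (without young library 1, 741). Kdm6b, a demethylase of histone H3 lysine 27, was at 268, 305, 257 and 216 CPM and 136 and 100.3 CPM (2.22-fold, log2 difference 1.15, SE 0.45). Slc2a3, the glucose transporter GLUT3, was at 435, 440.4, 359 and 360.2 CPM and 140.4 and 194 CPM (2.38-fold, log2 difference 1.25, SE 0.37). These last 2 varied little among the old libraries. Sat1, which acetylates polyamines for breakdown, was at 31.3, 235, 113 and 219 CPM and 22.1 and 5.42 CPM (10.9-fold, log2 difference 3.44, SE 1.49; 6.84-fold without young library 2).

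On the lower side, besides Myc, were Cflar and Panx1. Cflar encodes c-FLIP, an inhibitor of caspase-8, and was at 54.8, 87.5, 181 and 126 CPM in old and 207 and 186 CPM in young recipients (1.74-fold lower, log2 difference -0.80, SE 0.51). Panx1, a membrane channel, was at 11.04, 3.47, 4.01 and 5.53 CPM and 17.3 and 53.9 CPM (5.90-fold lower, log2 difference -2.56, SE 1.34; 2.84-fold without young library 2).

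In control LT-HSC the NF-kB and TNF response list had a median of 0.27, with 7 of 126 genes (5.56%) not overlapping and higher and 6 (4.76%) lower. In that comparison, of 3 against 4 libraries, the shares over all genes were 2.51% and 4.38%, unlike those of the mutant comparison. The difference of differences had a median of 0.86, beside 0.25 for all genes, with 20 genes at an unadjusted p under 0.05 on the larger side and 1 on the smaller. Over all genes these shares were 5.2% and 2.67%. In mutant MPP3 the list median was 0.00.

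The components that carry the TNF signal, from ligand and receptors to kinases, did not lie to one side. Of 40 tested, 5 (12.5%) did not overlap and were higher and 3 (7.5%) were lower, beside 5.44% and 7.21% of all genes. The median was 0.26, and it was -0.21 without libraries 1 and 4. Tnf itself was scarcely read: 10.4, 0, 0.154 and 1.96 CPM in old and 0 in both young libraries, so the groups overlapped at 0. Tnfrsf1a (chr6:125349362-125362484, plus strand), the receptor with a death domain, was at 100.1, 29.4, 34.97 and 9.10 CPM in old and 35.96 and 28.2 CPM in young recipients, and the groups overlapped (log2 difference 0.44, SE 1.13). Its direction depended on old library 1, without which the log2 difference was -0.39.

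Tnfrsf1b (chr4:145213463-145246870, minus strand), the receptor without a death domain, did not overlap. It was at 85.4, 92.8, 44.1 and 195 CPM in old and 27.03 and 21.9 CPM in young recipients, a 4.26-fold difference (log2 difference 2.09, SE 1.05). In control LT-HSC it was at 5.48, 54.98 and 17.8 CPM in old and 29.7, 22.2, 19.5 and 115 CPM in young recipients (log2 difference -0.83, SE 0.85). The mutant and control differences themselves differed by 2.92 on the log2 scale (SE 1.34). Old library 4 was the highest, and without libraries 1 and 4 the mutant difference was 1.49.

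Inside the cell, Nfkb2, which encodes the p100 precursor of the non-canonical pathway, was at 29.4, 10.4, 67.9 and 30.1 CPM in old and 2.53 and 1.06 CPM in young recipients (19.01-fold, log2 difference 4.25, SE 1.86). Nfkb2 overlaps Psd in the annotation. Rbck1, a subunit of the linear ubiquitin ligase, was at 124, 72.8, 96.9 and 71.5 CPM and 19.7 and 59.4 CPM (2.31-fold, log2 difference 1.21, SE 0.86; 1.54-fold without young library 1). Ikbkg, the regulatory subunit of the IkB kinase, was at 32.5, 22.1, 22.2 and 44.4 CPM and 10.9 and 16.4 CPM (2.22-fold, log2 difference 1.15, SE 0.99). The related ubiquitin ligases Birc3 and Birc2 lay on opposite sides. Birc3 was at 111, 182, 135 and 147 CPM in old and 92.9 and 93.5 CPM in young recipients (1.54-fold, log2 difference 0.63, SE 0.50). Birc2 was at 36.7, 43.97, 46.2 and 18.4 CPM and 66.00 and 49.9 CPM (1.59-fold lower, log2 difference -0.67, SE 0.92). Mlkl, the effector of necroptosis, was at 0.298, 10.7, 8.32 and 0 CPM and 12.8 and 41.1 CPM (5.57-fold lower, log2 difference -2.48, SE 1.74; 2.62-fold without young library 2). A list of 33 death and survival genes had 1 gene (3.03%) not overlapping and higher and 5 (15.2%) lower, beside 5.44% and 7.21% of all genes. Birc2, Casp1, Cflar and Mlkl were among the 5. Of the 5, none had an unadjusted p under 0.05.

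**Figure D3:**
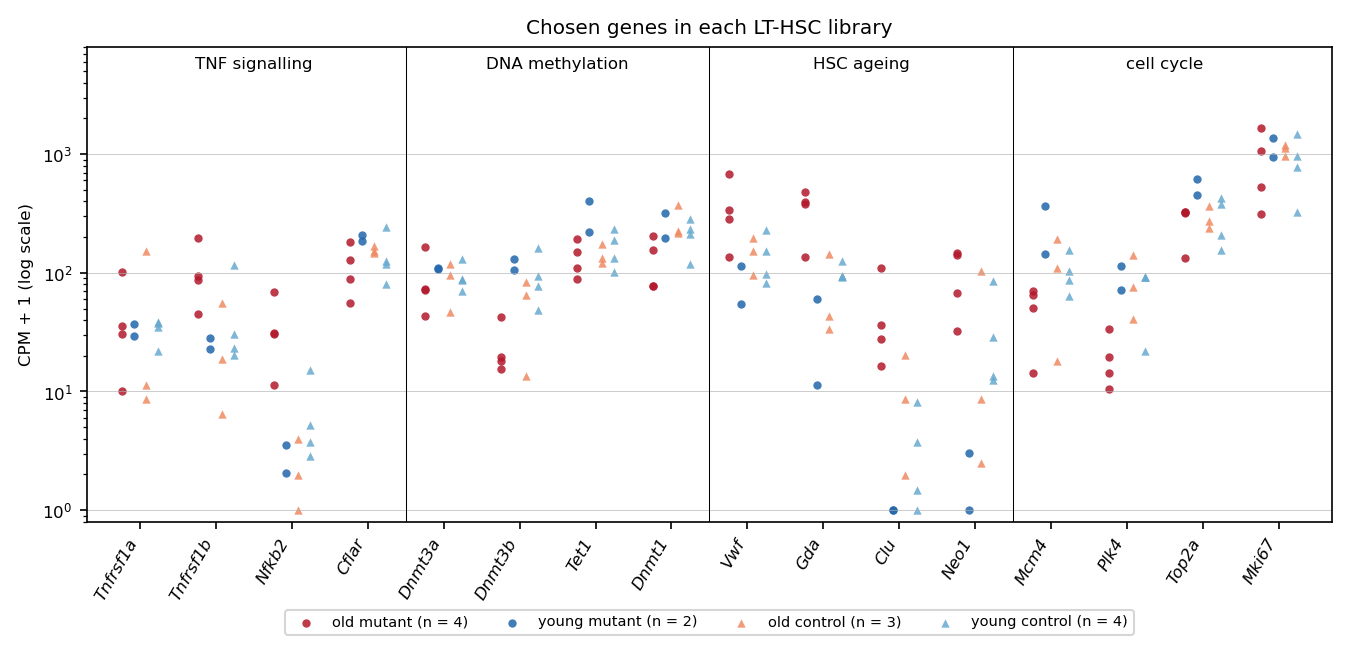
CPM + 1 on a log axis for 16 chosen genes in the 4 old (red) and 2 young (blue) mutant and the 3 old (orange) and 4 young (light blue) control LT-HSC libraries, 1 point a library. Tnfrsf1b lies above both young libraries in all 4 old ones, Tnfrsf1a overlaps, and Dnmt3b lies below in all 4.

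Genes known to be higher in stem cells from aged mice were examined as a list because the donors here were young and only the recipients differed in age. Of 58 tested, 14 (24.1%) did not overlap and were higher in old recipients and 2 (3.45%) were lower, beside 5.44% and 7.21% of all genes. Of the 58, 43 (74.1%) had a log2 difference above 0, beside 55.7% of all genes. The median was 0.98. Of the 14, 7 are immediate-early genes, and among the 50 members that are not, 7 (14%) did not overlap and were higher, 2 (4%) were lower and the median was 0.76. Without libraries 1 and 4 the median of the list was 0.87, and from library 2 alone it was 1.24. The lowest value over the alternatives, 0.54, was without library 2. DESeq2 called 13 of 57, all higher, beside 2.38% of all genes.

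Vwf, von Willebrand factor, marks platelet-biased stem cells, and lies at chr6:125546774-125686679 on the plus strand. It was at 681, 335, 281 and 136 CPM in old and 113 and 53.5 CPM in young recipients (4.30-fold, log2 difference 2.11, SE 0.66). The old libraries ran from 136 to 681 CPM and the lowest was just above the highest young one. Of 15 tested megakaryocyte and platelet markers, Vwf was the only 1 (6.67%) that did not overlap and was higher. On the lower side were 2 (13.3%), Pf4 and Gp1bb, beside 5.44% and 7.21% of all genes, so Vwf did not stand for the other platelet markers. Gda, guanine deaminase (chr19:21391307-21473445, minus strand), was at 378, 478, 135 and 394 CPM and 59.1 and 10.3 CPM (9.97-fold, log2 difference 3.32, SE 0.83; 5.89-fold without young library 2). Clu, the extracellular chaperone clusterin, was at 26.9, 35.2, 109 and 15.3 CPM in old and 0 in both young libraries, at least 277-fold higher (at least 159-fold without old library 3).

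Neo1, a netrin receptor, was at 66.3, 145, 141 and 31.2 CPM in old and 2.05 and 0 CPM in young recipients (92.9-fold, log2 difference 6.54, SE 2.03; 46.9-fold without young library 2). Lpl, lipoprotein lipase, was at 108, 105, 55.2 and 93.1 CPM and 41.6 and 47.2 CPM (2.03-fold, log2 difference 1.02, SE 0.56). Bmpr1a, a type I receptor for bone morphogenetic proteins, was at 5.97, 109, 4.62 and 13.02 CPM and 0.845 and 0 CPM (76.4-fold, log2 difference 6.26, SE 2.17; 18.4-fold without old library 2 and 38.5-fold without young library 2). Old library 2 was far above the others for Bmpr1a. Ptprk, a receptor tyrosine phosphatase, was at 1.34, 104, 30.2 and 0.178 CPM against 0 and 0.106 CPM, with a pooled ratio of 674 and a counting interval of 121 to 26638. Without old library 2 the ratio was 194 and without young library 1 it was 358. Ptprk was high only in old libraries 2 and 3 of the 4.

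Both ageing genes on the lower side are membrane proteins. Muc13, a transmembrane mucin, was at 205, 335, 281 and 170.4 CPM in old and 393 and 342 CPM in young recipients (1.48-fold lower, log2 difference -0.57, SE 0.42). Slc22a3, an organic cation transporter, was at 92.8, 46.8, 89.05 and 22.5 CPM and 136 and 164 CPM (2.39-fold lower, log2 difference -1.25, SE 0.59). Muc13 overlaps Gm15657 in the annotation. Several well-known members of the list overlapped, among them Selp, Aldh1a1, Alcam, Slamf1 and Procr.

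In control LT-HSC the ageing list had a median of 0.06, with 4 of 58 genes (6.9%) not overlapping and higher and 3 (5.17%) lower. Over all genes the control shares were 2.51% and 4.38%. The difference of differences had a median of 1.07, beside 0.25 for all genes, with 12 genes at an unadjusted p under 0.05 on the larger side and 1 on the smaller. Over all genes these shares were 5.2% and 2.67%. Gda differed by 3.79 and Vwf by 2.03 (SE 0.82). In control LT-HSC, Vwf was at 153, 94.6 and 195 CPM in old and 229, 152, 97.6 and 80.4 CPM in young recipients, which overlapped. In mutant MPP3 the list median was 0.20, and Gda was at 108, 72.7, 242 and 213 CPM in old and 149, 116 and 139.6 CPM in young recipients (log2 difference 0.24, SE 0.54).

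**Figure D4:**
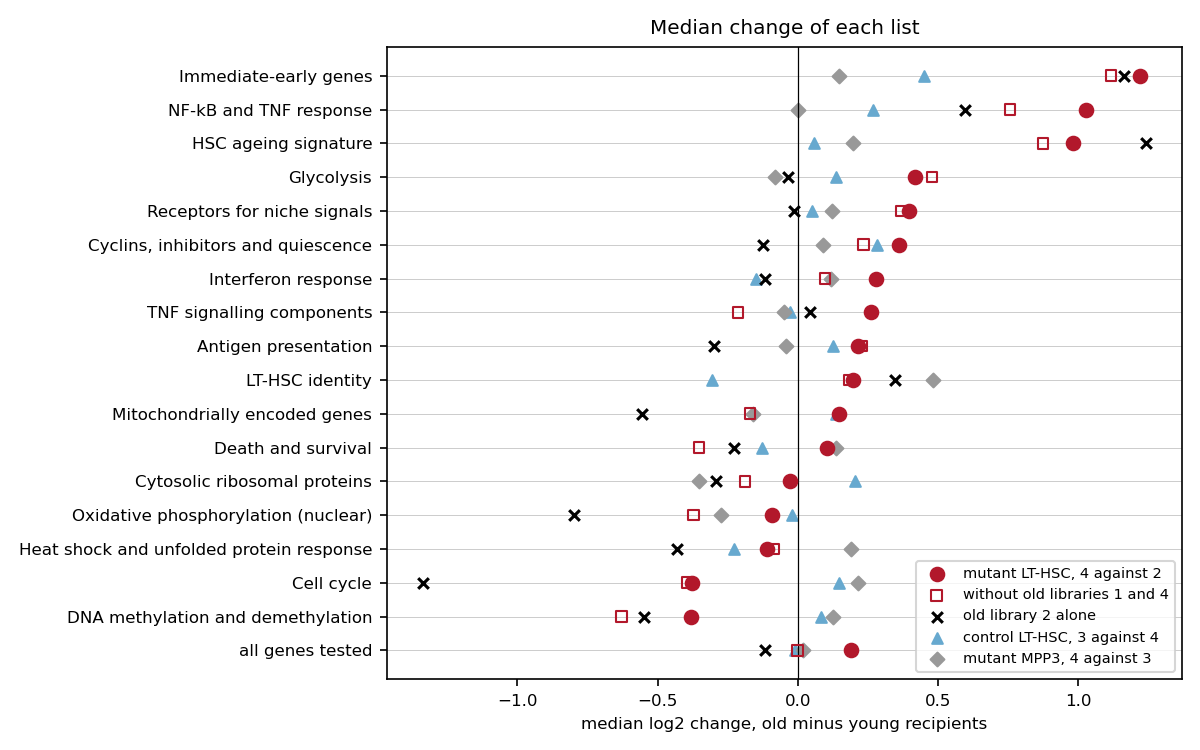
Median log2 difference, old minus young recipients, of each gene list in mutant LT-HSC (circles), the same without old libraries 1 and 4 (squares) and from old library 2 alone (crosses), control LT-HSC (triangles) and mutant MPP3 (diamonds), with all genes tested in the last row. The immediate-early, NF-kB and ageing lists lie at 1.22, 1.03 and 0.98 in mutant LT-HSC and at 0.45, 0.27 and 0.06 in control LT-HSC.

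Genes of LT-HSC identity showed less. Of 48 tested, 5 (10.4%) did not overlap and were higher and 1 (2.08%) was lower, beside 5.44% and 7.21% of all genes. The median was 0.20 beside 0.19 for all genes. The 5 included Egr1, Nr4a1, Vwf and Cdkn1c, of which the first 2 are immediate-early genes. Cdkn1c, the cyclin-dependent kinase inhibitor p57, was at 2.09, 7.46, 19.4 and 3.39 CPM in old and 0.603 and 0 CPM in young recipients (25.6-fold, log2 difference 4.68, SE 2.77; 13.7-fold without old library 3 and 13.3-fold without young library 2). Meis1, a homeodomain factor needed for stem cell maintenance, went the other way, at 405, 454, 363 and 267 CPM and 586 and 511 CPM (1.47-fold lower, log2 difference -0.56, SE 0.45), and it overlaps Gm16140. Hlf, a factor used to mark stem cells, overlapped at 1309, 1258, 1074 and 448 CPM and 738 and 1215 CPM (log2 difference 0.07, SE 0.40). Among the old libraries Hlf was lowest in library 4. In mutant MPP3 the identity list had a median of 0.48.

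The list for DNA methylation and demethylation had a median below 0. It also holds the metabolic enzymes Idh1 and Idh2 and the chromatin regulators Asxl1, Ezh2, Kdm6a, Kmt2a and Kmt2d, so its median is not that of the methylation machinery alone. Of 22 genes tested, 0 (0%) did not overlap and were higher and 3 (13.6%) were lower, beside 5.44% and 7.21% of all genes, and DESeq2 called 0. Of the 22, 15 had a log2 difference below 0, and 31.8% were above 0, beside 55.7% of all genes. The median was -0.38, beside 0.19 for all genes, and stayed between -0.63 and -0.16 in all 21 alternatives run. Dnmt3a (chr12:3806007-3914443, plus strand), the gene the donors carry mutated, was at 71.5, 164, 41.9 and 70.8 CPM in old and 108 and 106 CPM in young recipients, and the groups overlapped (log2 difference -0.30, SE 0.59). Counts per gene do not separate a mutant from a normal allele, so they do not check the genotype. Dnmt3b (chr2:153649450-153687730, plus strand), the other de novo methyltransferase, was at 18.5, 41.8, 14.5 and 16.9 CPM in old and 104 and 129 CPM in young recipients, 5.06-fold lower (log2 difference -2.34, SE 0.73). Old library 2 was the highest of its group at 41.8 CPM and still far below either young library. In control LT-HSC, Dnmt3b was at 63.9, 12.6 and 83.1 CPM in old and 76.8, 93.2, 161 and 47.9 CPM in young recipients (log2 difference -0.83), and the difference of differences was -1.51 (SE 0.99), so a larger gap in the mutant was not shown.

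Tet1, which oxidises methylcytosine, was at 109, 191, 149 and 87.1 CPM in old and 401 and 219 CPM in young recipients (2.31-fold lower, log2 difference -1.21, SE 0.45). Dnmt1, which copies methylation at replication, was at 76.1, 75.8, 203 and 155 CPM and 196 and 321 CPM (2.03-fold lower, log2 difference -1.02, SE 0.48). Dnmt1 overlapped, because old library 3 lay above young library 1.

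Cell cycle genes also had a median below 0. Of 88 tested, 2 (2.27%) did not overlap and were higher and 10 (11.4%) were lower, beside 5.44% and 7.21% of all genes, and the median was -0.38. DESeq2 called 1 of 86, Gtse1, lower, beside 2.38% of all genes in either direction. The size of the shift depended on the library: the median was -1.34 from old library 2 alone, -0.40 without libraries 1 and 4, and -0.09 without library 2. Summed CPM of the list was 4787, 3744, 7416 and 8749 in old and 8409 and 7307 in young recipients, so old libraries 1 and 2 were low and 3 and 4 overlapped the young ones. Summed erythroid markers were 3438, 484, 4129.6 and 18778 CPM in old and 1291 and 885 CPM in young recipients, highest in the same old library 4, and their part in the cell cycle values was not tested.

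Among the 10 on the lower side were Mcm4, Dtl, Plk4, Top2a and Gtse1. Mcm4, a subunit of the replicative helicase, was at 13.3, 49.2, 64.6 and 68.9 CPM in old and 143 and 365 CPM in young recipients (5.19-fold lower, log2 difference -2.37, SE 0.76; 2.88-fold without young library 2). Dtl, which targets replication licensing factors for destruction, was at 2.98, 43.3, 18.8 and 18.7 CPM and 77.3 and 112 CPM (4.50-fold lower, log2 difference -2.17, SE 0.95). Plk4, the kinase that starts centriole duplication, was at 9.40, 32.8, 13.4 and 18.6 CPM and 113 and 70.4 CPM (4.94-fold lower, log2 difference -2.30, SE 0.73). All 3 kept the groups apart, and all 3 were lowest in old library 1. Top2a, a topoisomerase of dividing cells, was at 319, 133, 324 and 324 CPM in old and 613 and 451 CPM in young recipients (1.93-fold lower, log2 difference -0.95, SE 0.44). Mki67, the most widely used marker of cycling, overlapped at 532, 312, 1073 and 1659 CPM and 1356 and 939.8 CPM (log2 difference -0.36, SE 0.55). Gtse1, expressed in G2 and S phase, was at 0, 0, 1.54 and 0 CPM and 89.05 and 4.04 CPM, with a pooled ratio of 0.00858 (0.0931 without young library 1).

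The 2 genes on the higher side were Cdca3, a mitotic entry factor, and Gins1, a subunit of the replication fork complex. Cdca3 was at 20.1, 18.9, 18.6 and 133 CPM in old and 6.39 and 7.02 CPM in young recipients (7.08-fold, log2 difference 2.82, SE 1.27; 2.86-fold without old library 4). Gins1 was at 4.48, 3.34, 6.78 and 8.92 CPM and 1.45 and 2.98 CPM (2.64-fold, log2 difference 1.40, SE 1.97). In control LT-HSC the cell cycle list had a median of 0.15, with 2 genes (2.27%) higher and 0 lower without overlap, beside 2.51% and 4.38% of all genes. In the difference of differences 3 genes were on the smaller side at an unadjusted p under 0.05, with 0 on the larger. Over all genes these shares were 2.67% and 5.2%. For Mcm4 that difference was -2.43 (SE 1.03) and for Plk4 -2.51 (SE 0.99). In mutant MPP3 the list median was 0.22.

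**Figure D5:**
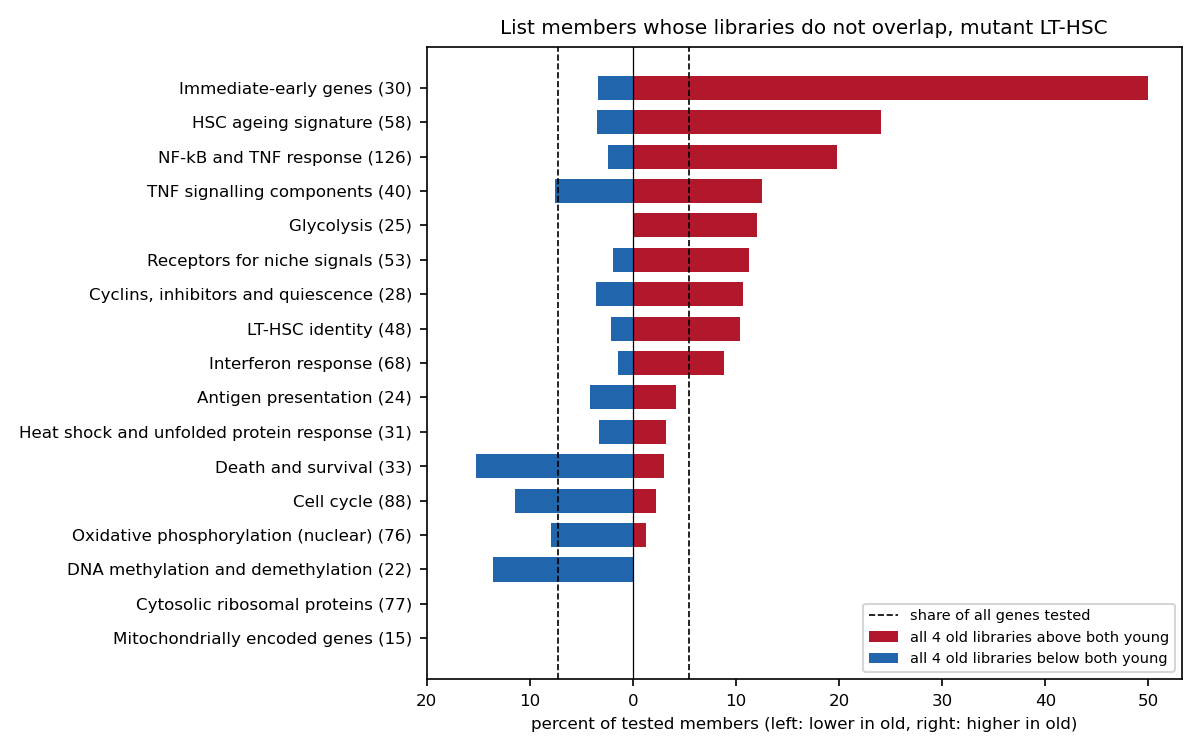
Share of each list's tested genes whose 4 old and 2 young libraries did not overlap, in percent, higher to the right and lower to the left, with the shares over all genes tested (5.44% and 7.21%) as dashed lines and the number tested in brackets. 50% of the immediate-early list lies on the higher side, and the cell cycle and DNA methylation lists lie mainly on the lower.

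Over all genes, those with the smallest p on the higher side included Zfp36, Neat1, Nr4a1 and Atf3, described above, and Trib1, Sbno2 and Gsr. Trib1, a pseudokinase that steers degradation of C/EBP alpha, was at 48.2, 39.7, 104 and 244 CPM in old and 0.965 and 1.06 CPM in young recipients (106-fold, log2 difference 6.72, SE 1.54; 62.1-fold without old library 4). Sbno2, a co-regulator in the anti-inflammatory response to interleukin-10, was at 41.3, 34.8, 44.8 and 131 CPM and 3.86 and 2.34 CPM (20.3-fold, log2 difference 4.34, SE 1.03; 12.95-fold without old library 4). Gsr, glutathione reductase, was at 114, 41.1, 83.04 and 276 CPM and 13.6 and 11.3 CPM (10.3-fold, log2 difference 3.36, SE 0.83; 6.36-fold without old library 4). All 3 are expressed in myeloid cells too, and all 3 were highest in old library 4, where neutrophil markers were highest. In library 2 they stood at 39.7, 34.8 and 41.1 CPM, above both young libraries.

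On the lower side, Cc2d2a, a protein of the ciliary transition zone, was at 9.25, 14.5, 7.55 and 6.42 CPM in old and 428 and 43.6 CPM in young recipients (24.9-fold lower, log2 difference -4.64, SE 0.90; 4.61-fold without young library 1), and young library 1 lay far above young library 2. Vamp8, a SNARE of vesicle fusion, was at 13.9, 23.1, 21.3 and 14.1 CPM and 113 and 152 CPM (7.31-fold lower, log2 difference -2.87, SE 0.63). Rgs1, which damps G protein signals, was at 86.9, 151, 169 and 69.6 CPM and 532 and 318 CPM (3.56-fold lower, log2 difference -1.83, SE 0.45). Ssh1, a cofilin phosphatase, was at 17.5, 37.3, 8.94 and 37.3 CPM and 253 and 95.9 CPM (6.90-fold lower, log2 difference -2.79, SE 0.68; 3.80-fold without young library 1). Wdr7, a partner of the vacuolar proton pump, was at 12.8, 7.46, 6.16 and 9.10 CPM and 90.98 and 54.6 CPM (8.18-fold lower, log2 difference -3.03, SE 0.75). Smarcd1, a subunit of the BAF chromatin remodeller, was at 9.99 to 16.3 CPM in old libraries and 29.8 and 206 CPM (9.84-fold lower, log2 difference -3.30, SE 0.82; 2.46-fold without young library 2), with young library 2 far above young library 1.

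Adcy3 and Srgap1 were almost absent from old recipients. Adcy3, an adenylate cyclase, was at 0 in all 4 old libraries and at 37.6 and 2.02 CPM in young ones, at least 166-fold lower in old recipients (at least 17.9-fold without young library 1). Srgap1, a GTPase activator, was at 0, 0, 0 and 0.357 CPM against 40.4 and 82.4 CPM, a pooled ratio of 0.0012 with a counting interval of 0.000145 to 0.00434 (ratio 0.00186 without young library 2). Adcy3 overlaps Cenpo in the annotation. For Adcy3 most of the gap rests on young library 1.

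The comparison with control LT-HSC singled out Pik3cd on the larger side. Pik3cd, the leukocyte isoform of phosphoinositide 3-kinase, was at 177, 61.2, 112 and 293 CPM in old and 30.4 and 21.8 CPM in young mutant libraries, and at 3.82, 7.69 and 13.8 CPM in old and 64.02, 52.5, 50.7 and 79.2 CPM in young control libraries. Its difference of differences was 5.49 (SE 1.03). Pcmtd2 followed, at 69.5, 63.1, 65.8 and 63.9 CPM in old and 10.4 and 10.3 CPM in young mutant libraries (4.94, SE 1.12). The 4 old values of Pcmtd2 were close to each other. Osm, the cytokine oncostatin M, was at 18.7, 2.83, 52.1 and 99.5 CPM in old and 0.845 and 1.70 CPM in young mutant libraries and at 0 in all 3 old control libraries, so its fitted difference is no measure of size. On the smaller side were Cc2d2a (-5.52, SE 1.17), Srgap1 and Mfsd5 (-6.38, SE 1.31), a membrane transporter that overlapped in the mutant at 10.9, 4.89, 7.24 and 0.714 CPM and 52.00 and 8.72 CPM.

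Against mutant MPP3, the genes with the smallest p were Hdc, Mrgpra2b and Gsr on the LT-HSC side, and Smarcc1 and Adcy3 were among those on the other. Hdc, which makes histamine and is expressed in myeloid cells and myeloid-biased stem cells, was at 7.61, 8.74, 36.8 and 129 CPM in LT-HSC from old recipients and 0 in both young libraries, at least 239.9-fold higher (at least 101-fold without old library 4). In MPP3 it was at 14.6, 16.01, 46.1 and 94.5 CPM and 44.8, 57.7 and 26.9 CPM. Mrgpra2b, a receptor of the Mas-related family, was at 77.6, 1.41, 9.24 and 219.6 CPM in old LT-HSC and 0 in both young libraries, at least 404-fold higher (at least 166-fold without old library 4), and at 23.9, 19.8, 41.3 and 101 CPM and 78.6, 96.5 and 45.03 CPM in MPP3. Both genes were thus read in MPP3 from young recipients too, and in LT-HSC both were highest in old library 4. Smarcc1, a core BAF subunit, was at 342, 162, 119.7 and 215 CPM in old and 407 and 773 CPM in young LT-HSC and at 572, 341, 307 and 347 CPM and 254, 202 and 222 CPM in MPP3, where it lay on the higher side in old recipients. The difference was -2.28 (SE 0.49). Smarcc1 overlaps Dhx30 in the annotation.

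The remaining lists lay nearer the background. Of 68 interferon response genes, 6 (8.82%) did not overlap and were higher and 1 (1.47%) was lower, beside 5.44% and 7.21% of all genes. The median was 0.28. Oas3, a sensor that activates RNA decay, was at 94.01, 45.1, 88.7 and 139 CPM in old and 21.96 and 29.98 CPM in young recipients (3.53-fold, log2 difference 1.82, SE 0.70). Gbp3, an interferon-induced GTPase, was at 18.4, 7.97, 105 and 57.4 CPM and 4.22 and 2.55 CPM (13.9-fold, log2 difference 3.79, SE 1.43; 8.21-fold without old library 3), and Bst2, which tethers virions, at 6.42, 8.23, 7.70 and 14.3 CPM and 0.362 and 0.106 CPM. Ifi44 was the one on the lower side, at 8.06, 15.8, 24.3 and 20.7 CPM and 67.2 and 25.8 CPM (2.70-fold lower, log2 difference -1.43, SE 0.79; 1.499-fold without young library 1). In control LT-HSC the interferon list had a median of -0.15, with 1 gene (1.47%) higher and 8 (11.8%) lower without overlap, beside 2.51% and 4.38% of all genes. Oas3 had a difference of differences of 3.27 (SE 0.91).

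Among 53 receptors for niche signals 6 (11.3%) were higher and 1 (1.89%) lower without overlap, beside 5.44% and 7.21% of all genes. The median was 0.40. Of 25 glycolysis genes 3 (12%) were higher and 0 lower, Slc2a3 among them, with a median of 0.42. Oxidative phosphorylation genes encoded in the nucleus (76) had 1 (1.32%) higher and 6 (7.89%) lower and a median of -0.09. Cytosolic ribosomal proteins (77) and mitochondrially encoded genes (15) had none in either direction, with medians of -0.03 and 0.15. Heat shock and unfolded protein genes (31) had 1 and 1 (3.23% each way), with a median of -0.11. Antigen presentation genes (24) had 1 and 1 (4.17% each way), with a median of 0.21. Medians of 28 cyclins and quiescence genes (0.36) and of the niche receptor and glycolysis lists turned negative under limma voom, at -0.17, -0.02 and -0.12.

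Marker lists of other cell types showed where the old libraries held transcripts of mature cells. Among the mutant libraries, neutrophil genes were read mainly in old libraries 3 and 4, through which such genes pass the filter on low counts, so the number of them with a small p is not given. Mpo, myeloperoxidase of immature neutrophils and progenitors, was at 1.94, 0.129, 821 and 2912 CPM in old and 1.57 and 1.70 CPM in young recipients. S100a8, a calcium-binding protein of neutrophils, was at 99.8, 4.37, 514 and 3203 CPM and 0.241 and 0.106 CPM, and its partner S100a9 was at 52.5, 2.83, 412 and 4466 CPM and 0 and 0.957 CPM. Levels were high in old libraries 3 and 4 and within a few CPM of the young ones in library 2. Control LT-HSC from old recipients held such transcripts too. There S100a9 was at 23.9, 336 and 211 CPM in old and 0, 1.53, 0.314 and 3.37 CPM in young recipients, while S100a8 overlapped. Of 19 tested neutrophil markers, 6 (31.6%) did not overlap and were higher in old controls and 0 were lower, beside 2.51% and 4.38% of all genes. The same limit of the filter applies. Ighm, the heavy chain of IgM, was at 10099, 0, 33.1 and 14169.7 CPM in old and 0 and 180.2 CPM in young recipients, and its log2 difference turned from 6.07 to -2.40 without libraries 1 and 4. From library 2 alone the neutrophil and monocyte lists had medians of 0, and the erythroid and plasma cell lists of -1.58 and -3.14.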

How the data were processed

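Values are whole-number counts of reads per gene as deposited by the authors. The submitters' processing notes name RSEM 1.2.12, Bowtie2 2.2.0, SAMtools 0.1.18, edgeR 3.5.3 and the mouse build GRCm38; whether the counts are rounded RSEM estimates, and whether strand was used, is not given in the sources used here. Per the labels' protocols, RNA from sorted cells was extracted with a micro column kit and made into standard Illumina libraries. Symbols came from GENCODE M21 for 37607 of 38924 gene IDs (96.62%).

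The test was edgeR 4.0.16's quasi-likelihood test (filterByExpr, TMM scaling, robust dispersion) in R 4.3.3, 2-sided, on the 13 LT-HSC libraries with 1 coefficient per group and Benjamini-Hochberg adjustment at 0.05. Control LT-HSC enter through a difference of differences in the same model, and mutant MPP3 through a model of all 28 libraries. The common biological coefficient of variation was 1.17. The SE is the size of the log2 difference over the root of the F statistic, and the SE and all p-values measure the spread between libraries. Counting intervals (95%, exact) and floors of 3 counts cover counting error only. The method was tested on simulated data.

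Genes were named by a rule: Dnmt3a, Dnmt3b, Tnf, Tnfrsf1a and Tnfrsf1b, the 8 higher and 8 lower genes with the smallest p that did not overlap and had a mean of at least 10 CPM, up to 3 members of each list in each direction and its highest member, and the 3 leading genes each way of the other 2 comparisons. Genes it picks from marker lists or lists near the background are mostly left out. Some of its picks are not reported here. Of the 90 genes given with values, 26 fall outside it and were chosen after their values were seen: Clu, Cxcl2, Dnmt1, Dtl, Dusp1, Fos, Fosb, Fosl2, Ikbkg, Il1b, Jun, Junb, Jund, Kdm6b, Klf2, Klf4, Klf6, Lpl, Neo1, Nfkbiz, Nr4a2, Ptgs2, Ptprk, Sat1, Tnfaip2 and Top2a. The libraries compared, the lists and the rule were chosen with earlier results of these data known. Lists are described by counts and medians, not tested. Alternatives were DESeq2 1.42.0, limma 3.58.1 (voom), other scaling factors and filters, left-out genes, libraries and pools, and a replicate block. DESeq2 without old libraries 1 and 4, and the fits without libraries 3 and 4 and with library 2 alone, and the model with animals as a block, were chosen after seeing the data. Promoter windows came from RefSeq tables (GRCm38.p6) and were searched on both strands for the cAMP response element core TGACG, the AP-1 site TGANTCA, the CArG box and the NF-kB site. Gene spans are those of GENCODE M21. Printed promoters were limited to windows with at most 7 bases of annotated exon.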

Additional observations from a re-analysis of the deposited data

Results flagged for a closer look

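Among the 4 old libraries, 16 of 124 measures had 1 library far from the other 3. The rule used flags about 1 in 20 by chance only for independent, normally distributed values. CPM values vary widely and some are 0, and the genes were chosen, so whether 16 exceeds chance cannot be told. Most of the 16 flags are on old library 4, which also had the highest summed neutrophil level. That sum was 21280.0 CPM in old library 4 against 133 to 3469.9 CPM in the others. In that library Btg2 was at 225 CPM (others 22.4 to 43.3), Dusp1 at 946 CPM (673 to 708), Klf2 at 100.3 CPM (69.5 to 72.4), Il1b at 368 CPM (19.3 to 37.6), Sbno2 at 131 CPM (34.8 to 44.8), Cdca3 at 133 CPM (18.6 to 20.1), S100a8 at 3203 CPM and S100a9 at 4466 CPM. Srgap1 was at 0.357 CPM in it and at 0 in the other old libraries. In old library 2, Bmpr1a was at 109 CPM (others 4.62 to 13.02), Dnmt3b at 41.8 CPM (14.5 to 18.5) and Top2a at 133 CPM, the lowest (others 319 to 324). Gtse1 was at 1.54 CPM in old library 3 and 0 in the others, and Smarcd1 at 16.3 CPM in old library 1. The summed NF-kB and TNF response level was lowest in old library 3, at 13257 CPM against 18385 to 18472 CPM.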

How the results depend on the processing

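The comparison of old with young recipients gave 0 called genes in the main model and in 18 of 21 alternatives, and each of the 6 fits that left out 1 mutant library also gave 0. It gave 318 under DESeq2 (257 higher, 61 lower), 192 under DESeq2 without old libraries 1 and 4 (107 shared with the 318) and 3 under limma voom (Zfp36 higher, Srgap1 and Cmya5 lower). Genes at an unadjusted p under 0.05 numbered 943 in the main model, 1475 under DESeq2, 548 and 568 without young library 1 or 2, and 619 from old library 2 alone. The cause was not tested, beyond the fewer libraries in the last 3. The difference of differences with control LT-HSC gave 0 in each alternative except DESeq2, with 261, and the one with MPP3 gave 0 in all, the recipient animals as a block included. Of 90 genes over up to 21 alternatives (1884 pairs), 1798 kept direction and side of the threshold, 73 passed it and 13, in 6 genes, reversed. Reversed were Dnmt3a (0.14 without old libraries 3 and 4, 0.61 from library 2 alone), Ighm (-2.40 without libraries 1 and 4, -2.37 the same by DESeq2, -12.38 from library 2 alone), Mpo (-0.67 without libraries 3 and 4, -3.51 from library 2 alone), Tnf (0 from library 2 alone) and Tnfrsf1a (-0.12 from library 2 alone, and -0.39 to 0.77 over the fits that left out 1 library). Hlf ran from -0.25 to 0.48 over the fits that left out 1 library. The median of all genes moved from 0.19 to between -0.12 and 0.48, and under limma voom to -0.09. Medians kept their sign in all 21 alternatives for the immediate-early (1.12 to 1.85), NF-kB (0.60 to 1.27), ageing (0.54 to 1.31), cell cycle (-1.34 to -0.09) and DNA methylation lists (-0.63 to -0.16). The split of unadjusted calls moved from 479 higher and 464 lower to 338 and 832 under limma voom and 1046 and 429 under DESeq2. Within the inferred sequencing pool that holds 3 of the 4 old and both young libraries, the medians of the immediate-early, NF-kB and ageing lists were 1.32, 1.13 and 0.97. The replicate block left 0 calls, with 641 genes at an unadjusted p under 0.05; the animals differ between groups, so the numbers pair nothing (median correlation of deviations 0.0025 over 16 pairs). Depth does not limit genes read at a high level in every library; for genes at 0 in a group it allows only bounds.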
